A study of Mus musculus with 47 samples.

Results

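The genes described here encode the protein core of the perineuronal net: 4 lecticans (Acan, Bcan, Ncan and Vcan), 2 link proteins (Hapln1 and Hapln4), 2 tenascins (Tnr and Tnc) and the receptor phosphatase Ptprz1. They were chosen by symbol from the hypothalamic gene table, which held 14221 genes, and all 9 were present and passed the filter on low counts. RNA was sequenced from hypothalamic punch dissections of 47 male Lep ob/ob mice aged 11 weeks, which lack leptin and become obese and hyperglycaemic. Of these, 24 had received a single intracerebroventricular (icv) injection of 3 µg FGF1, a growth factor, and 23 had received vehicle and were pair-fed to the FGF1-treated animals. Each library came from 1 mouse. Hypothalami were taken on Day 1 (FGF1, n = 10; vehicle labelled non-diabetic, n = 4), Day 5 (FGF1, n = 9; vehicle labelled non-diabetic, n = 7; vehicle labelled diabetic, n = 7) and Day 42 (FGF1, n = 5; vehicle labelled non-diabetic, n = 5). The study describes its Lep ob/ob mice as diabetic, yet the labels call all vehicle mice of Days 1 and 42 non-diabetic, and these labels were kept as given. All mice carried the ob/ob genotype, so no lean group was available for comparison, and the vehicle mice shared the reduced food intake of the FGF1-treated mice.

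Perineuronal nets are condensed extracellular matrix that wraps the cell bodies and proximal dendrites of certain neurons, including neurons of the arcuate nucleus. Hyaluronan strands anchor at the cell surface, lecticans bind hyaluronan at their N-terminal end, link proteins clamp that contact, and tenascin-R cross-links the lecticans at their C-terminal end. The lecticans carry chondroitin sulfate chains whose sulfation governs what binds the net. Brevican predominates in the adult brain, whereas neurocan and tenascin-C are best known from the developing brain and from reactive astrocytes after injury.

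Library totals ranged from 1243280 counts in 1 FGF1-treated Day 1 mouse (replicate 1) to 47082403, and the Day 5 libraries held 7579695 to 30009258 counts. The sample sheet listed 3 preparation codes that coincided with the 3 days, so levels on different days cannot be told apart from preparation, and each FGF1 comparison was made within a day. No pair of libraries within a group agreed within sampling noise. In bulk tissue, fewer cells of a type and less RNA per cell cannot be told apart.

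All positions are from the GENCODE annotation of mouse build GRCm38. Each lectican gene lies next to a gene of the link protein family, with no annotated gene between them. Vcan (chr13:89655312-89742509, minus strand) and Hapln1 (chr13:89539796-89611652, plus strand) are 43.7 kb apart, and Ncan (chr8:70093085-70120873, minus strand) and Hapln4 (chr8:70083457-70090862, plus strand) are 2.22 kb apart. Bcan (chr3:87987531-88000230, minus strand) lies 21.5 kb from Hapln2, and Acan (chr7:79053483-79115099, plus strand) ends 2 bases from Hapln3. Tnr (chr1:159523769-159931729, plus strand), Tnc (chr4:63959785-64047015, minus strand) and Ptprz1 (chr6:22875502-23052916, plus strand) stand apart from these pairs. Exons of Tnr and Tnc overlap non-coding genes on the opposite strand by up to 338 and 104 bases. The overlapping genes had no row in the count table, and use of strand in counting was not stated.

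The sequences before the start of 4 members are shown because Tnc and Ncan rose together on Day 1, Bcan fell on Day 1 and Tnr was higher on Day 5. Each is 250 bases upstream of a RefSeq start (GRCm38.p6), read 5′ to 3′ on the gene's strand, with matches to the TATA box (TATAAA) or GC box (GGGCGG) on either strand in capitals. The windows are chr4:64047016-64047265 for Tnc, chr8:70120845-70121094 for Ncan, chr3:88000357-88000606 for Bcan and chr1:159523519-159523768 for Tnr.
Tnc: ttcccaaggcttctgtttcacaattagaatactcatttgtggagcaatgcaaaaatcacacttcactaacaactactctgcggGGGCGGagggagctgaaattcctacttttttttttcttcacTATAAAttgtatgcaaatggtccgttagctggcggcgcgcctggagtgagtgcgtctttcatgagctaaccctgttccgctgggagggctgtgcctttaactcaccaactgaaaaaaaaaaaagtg
Ncan: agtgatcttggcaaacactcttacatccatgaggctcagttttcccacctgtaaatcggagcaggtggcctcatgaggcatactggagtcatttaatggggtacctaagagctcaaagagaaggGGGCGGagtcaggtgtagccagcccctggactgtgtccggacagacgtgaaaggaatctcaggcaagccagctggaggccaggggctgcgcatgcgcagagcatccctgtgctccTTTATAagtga
Bcan: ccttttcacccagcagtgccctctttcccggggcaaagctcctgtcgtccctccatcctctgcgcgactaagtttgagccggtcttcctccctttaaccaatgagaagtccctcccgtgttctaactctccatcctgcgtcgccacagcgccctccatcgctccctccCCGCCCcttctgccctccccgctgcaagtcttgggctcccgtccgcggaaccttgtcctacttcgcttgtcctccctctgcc
Tnr: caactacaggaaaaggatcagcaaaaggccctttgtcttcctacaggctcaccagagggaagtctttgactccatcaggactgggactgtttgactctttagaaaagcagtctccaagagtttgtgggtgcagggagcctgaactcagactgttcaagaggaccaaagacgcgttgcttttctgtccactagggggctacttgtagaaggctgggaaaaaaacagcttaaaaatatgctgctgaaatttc
Among the 8 members matched to a RefSeq promoter, TATAAA was found in Tnc and Ncan only, 126 and 11 bases before the start, against 12.4% of 32851 promoters of the same length. GGGCGG was found in 6 of 8 members, against 32.7% of promoters. The Tnr window held no match to any of the 7 motifs searched on both strands, and neither did that of Hapln1. The other motifs were the E-box (CANNTG, in 4 of 8 members and 66.2% of promoters), the CCAAT box (CCAAT, 3 of 8 and 33.8%), AP-1 (TGANTCA, 0 of 8 and 6.75%), STAT (TTCNNNGAA, 0 of 8 and 7.02%) and ETS (CCGGAAGT, 0 of 8 and 2.88%). RefSeq lists another start for Tnc, whose window (chr4:64046937-64047186) held the same TATAAA 205 bases before that start and had a GC content of 51.2%. That window also held TATATAA closer to that start, which an exact search for TATAAA does not match. GC content was 44.8% in the Tnc window shown, 54.4% in Ncan, 62.0% in Bcan and 46.8% in Tnr, against a median of 52.4% over all promoters.

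Levels were first compared between members in the 23 vehicle libraries of all days together, as CPM (a count scaled to library size with TMM factors) divided by exon length in kb. Bcan was the highest at 57.4 ± 10.4 CPM per kb (SD), followed by Ptprz1 at 38.0 ± 8.40, and exceeded it in 20 of 23 libraries. Tnr (16.6 ± 3.77), Hapln4 (16.1 ± 9.15) and Ncan (10.6 ± 1.04) formed the middle of the order. Neighbours in that middle range were not separated over the pooled days: Tnr exceeded Hapln4 in 15 of 23 libraries, and Hapln4 exceeded Ncan in 11. Vcan stood at 4.17 ± 1.22 CPM per kb and was below Ncan in all 23 libraries. The lowest levels belonged to Hapln1 (1.05 ± 0.41), Tnc (0.88 ± 0.17) and Acan (0.62 ± 0.15). Hapln1 exceeded Tnc in 14 of 23 libraries, so these neighbours were not separated over the pooled days either. Acan, encoding aggrecan, the lectican most often used to mark nets in cortex, was below Tnc in 21 of 23 libraries. The order differed between days. In vehicle mice Acan had the lowest mean on Days 5 and 42, but on Day 1 the lowest was Hapln1, at 0.559 CPM per kb against 0.721 for Acan. In vehicle mice Hapln4 exceeded Tnr and Ncan in mean on Days 1 and 42 and was below both on Day 5. Ptprz1 exceeded Bcan in 3 of the 5 vehicle mice of Day 42, replicates 1 (57.1 against 38.9 CPM per kb), 3 (54.5 against 40.1) and 4 (52.1 against 43.1). Group means of several members were unequal between days, which was not tested. Hapln4 had means over vehicle and FGF1 groups of 33.02 to 35.03 CPM on Day 5 and 97.1 to 114 CPM on Days 1 and 42. In the non-diabetic-labelled vehicle groups, Vcan had means of 28.5 CPM on Day 1, 67.6 CPM on Day 5 and 46.2 CPM on Day 42, Hapln1 of 3.19, 6.12 and 8.97 CPM, and Ptprz1 of 280.1, 380.4 and 470.1 CPM.

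**Figure D1:**
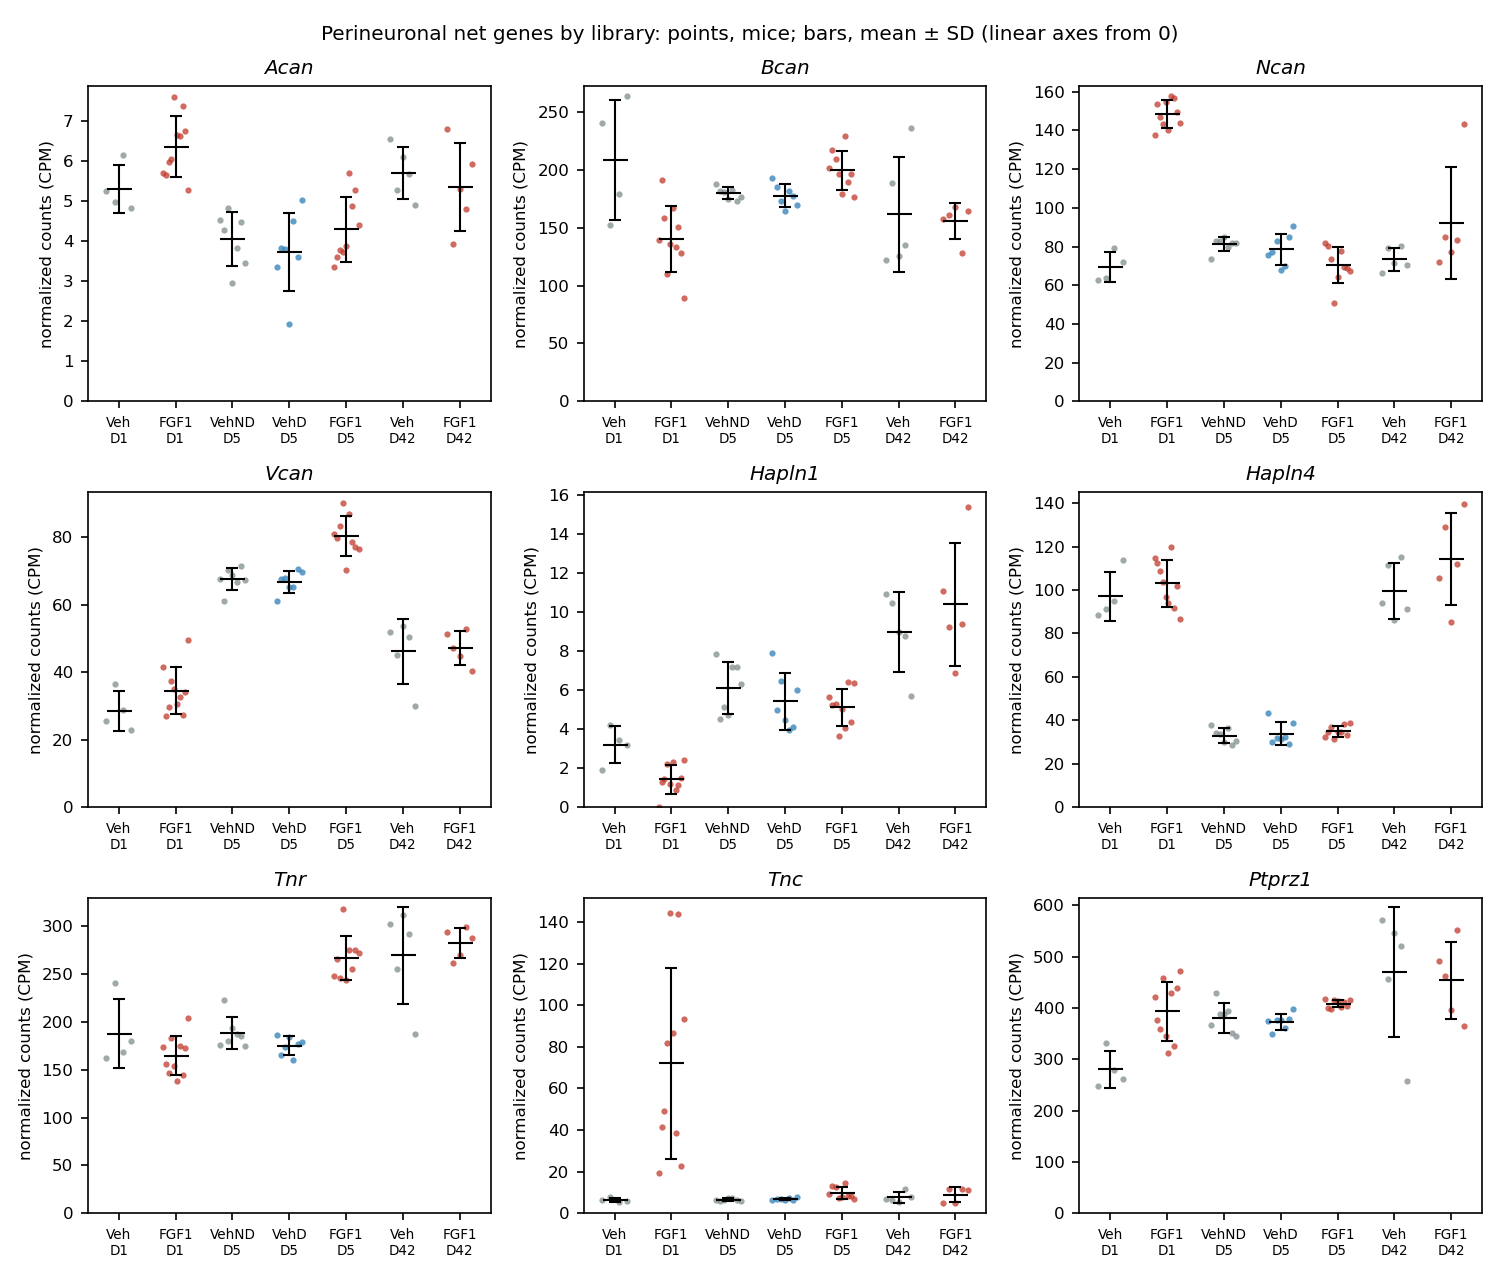
Normalized counts (CPM, vertical axes from 0) of the 9 net genes in each of the 7 groups (Veh, vehicle; ND, labelled non-diabetic; D, labelled diabetic). Each point is 1 mouse, and bars give the mean ± SD. The 10 FGF1-treated Day 1 mice lie above all vehicle mice for Ncan and Tnc, and the 9 FGF1-treated Day 5 mice lie above both vehicle groups for Tnr.

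On Day 1, Tnc and Ncan rose after FGF1, while Bcan and Hapln1 fell. Genes were called changed at an adjusted p below 0.05 and an absolute log2 fold change above 0.5 (edgeR quasi-likelihood test, Benjamini-Hochberg over all 14221 genes). By this rule 4 of 9 members were called, against 19.5% of all genes tested. Of these, 2 were higher (11.5% of all genes) and 2 were lower (8.05% of all genes). The median log2 fold change of the members was 0.26, and that of all genes was 0.01.

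Tnc, which encodes the hexameric glycoprotein tenascin-C, had the largest difference among the members. Vehicle mice had 6.29, 7.74, 5.65 and 5.83 CPM, while FGF1-treated mice ranged from 19.6 to 144.5 CPM with a median of 65.5. The groups did not overlap, but the FGF1-treated mice differed widely among themselves, with an SD of 45.9 CPM around a mean of 72.1. The fitted log2 fold change was 3.54 (SE 0.37, adjusted p = 5.2e-11), an 11.6-fold difference with a 95% interval of 6.97 to 19.3.

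Ncan, encoding neurocan, was separated between the groups as well. Its level was 62.6, 63.7, 79.3 and 71.9 CPM in the vehicle mice, and 138 to 158 CPM (median 148) in the FGF1-treated mice. All 10 treated mice exceeded the highest vehicle mouse, and the SD of 7.15 CPM among the 10 treated mice was small beside the gap. The log2 fold change was 1.10 (SE 0.11, adjusted p = 2.2e-11), a 2.15-fold difference (95% interval 1.84 to 2.50). Ncan and Tnc were the 2 of 9 members without overlap between groups, as found for 14.4% of all genes.

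Bcan, encoding brevican, moved the other way. Vehicle mice had 240.3, 152.4, 178.9 and 263.8 CPM, and FGF1-treated mice had 88.9 to 191 CPM with a median of 138. The groups overlapped, with 7 of 10 FGF1-treated mice below all vehicle mice. The log2 fold change was -0.57 (SE 0.13, adjusted p = 0.00034), or 0.672 times the vehicle level (95% interval 0.560 to 0.806). This call depended on the vehicle mice: without vehicle replicate 1 or 4 the log2 fold change was -0.50 or -0.44, short of the fold threshold, with adjusted p = 0.0047 and 0.0092.

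The link protein gene Hapln1, whose product stabilises the contact between lecticans and hyaluronan, was lower as well, at a low level of expression. Vehicle mice had 1.92, 4.21, 3.44 and 3.20 CPM, against 0 to 2.43 CPM (median 1.38) in FGF1-treated mice. Of the 10 treated mice, 7 lay below all vehicle mice. The log2 fold change was -0.996 (SE 0.22, adjusted p = 0.00029), or 0.501 times the vehicle level (95% interval 0.367 to 0.685). The count of 0 came from the library with 1243280 counts, where 0 allows a level of up to 2.44 CPM (3 counts, counting error only). Without that library the log2 fold change was -0.98 (adjusted p = 0.00030).

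The remaining 5 members were not called on Day 1. Ptprz1, which encodes receptor-type protein tyrosine phosphatase zeta and, as a secreted form, phosphacan, had an adjusted p of 0.00066 and a log2 fold change of 0.49 (SE 0.12), just under the fold threshold. Without FGF1 replicate 3, 5, 6 or 8 or vehicle replicate 2 it was called, with log2 fold changes of 0.50 to 0.58. Its level was 249 to 332 CPM in vehicle mice and 312 to 471 CPM in FGF1-treated mice, of which 8 of 10 exceeded all vehicle mice. By adjusted p alone 5 of 9 members passed, against 45.0% of all genes. Acan (log2 fold change 0.27, SE 0.14, adjusted p = 0.12), Vcan (0.26, SE 0.12, adjusted p = 0.062) and Tnr (-0.19, SE 0.10, adjusted p = 0.099) missed the threshold. For Hapln4 the log2 fold change was 0.08 with a 95% interval of -0.12 to 0.28.

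**Figure D2:**
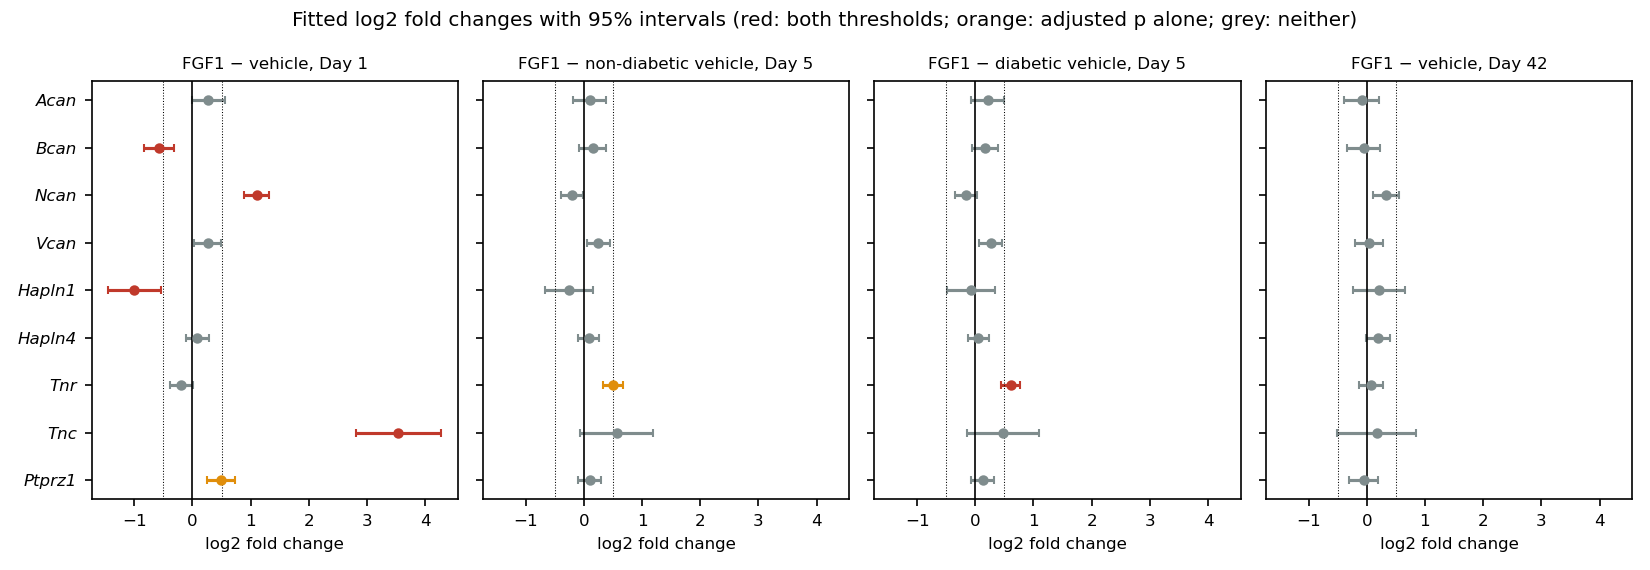
Fitted log2 fold changes (horizontal axes) of the 9 net genes for FGF1 against vehicle on each day, with 95% intervals. Dotted lines mark 0.5 and -0.5, red points passed both thresholds, orange points passed the adjusted p alone and grey points passed neither. Red points are Bcan, Ncan, Hapln1 and Tnc on Day 1 and Tnr against the diabetic-labelled vehicle on Day 5, and none on Day 42.

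The opposite movements changed the proportions of the members within each library, a measure that does not rest on scaling between libraries. These proportions were chosen after the values were seen and are given as a description. The ratio of Ncan to Bcan counts was 0.261 to 0.443 in the vehicle Day 1 libraries and 0.805 to 1.62 after FGF1, without overlap. Among lectican transcripts per kb, the Ncan share had a median of 30.7% in FGF1-treated mice (range 25.1 to 37.9%) and 12.5% in vehicle mice (9.91 to 15.5%). The Bcan share was correspondingly 53.7 to 71.6% against 79.8 to 87.2%. Brevican transcripts therefore remained the largest lectican share in all groups. The Tnc to Tnr count ratio was 0.114 to 0.994 after FGF1 and 0.0321 to 0.0389 in vehicle mice. By Day 5 the Ncan to Bcan ratio was 0.259 to 0.406 after FGF1, against 0.393 to 0.486 and 0.386 to 0.535 in the non-diabetic and diabetic-labelled vehicle mice.

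**Figure D3:**
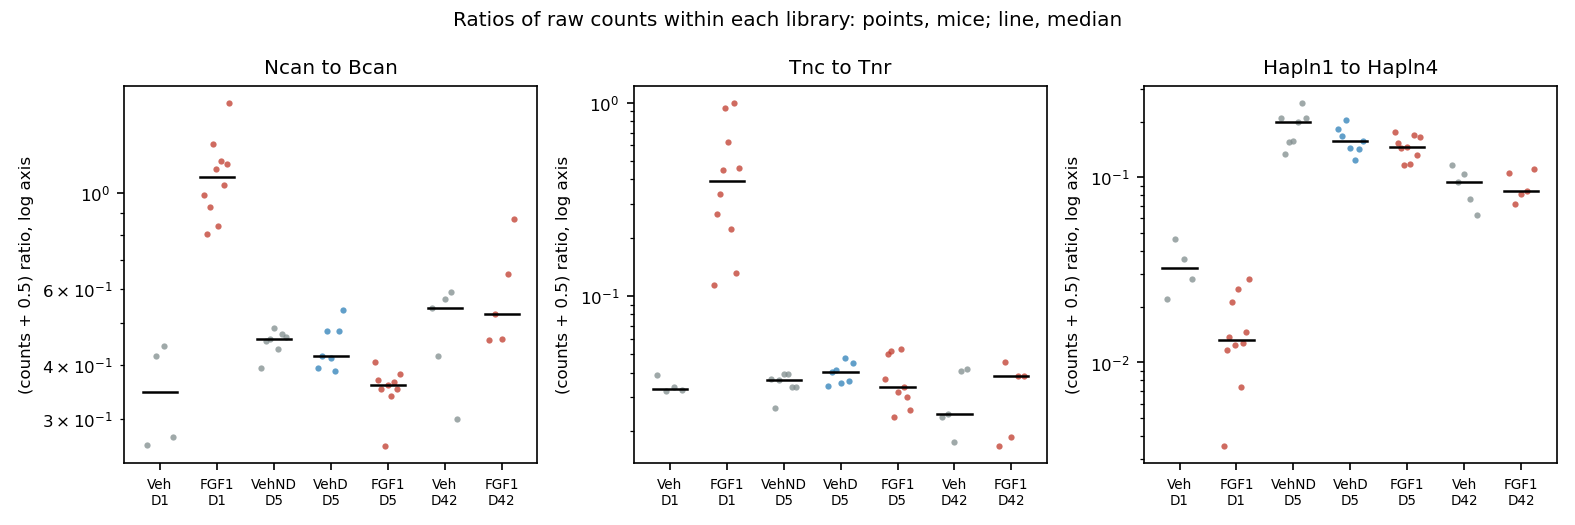
Ratios of counts within each library, with 0.5 added to each count (log vertical axes), for Ncan to Bcan, Tnc to Tnr and Hapln1 to Hapln4. Each point is 1 mouse and each line a group median. On Day 1 the FGF1 median was 1.09 against 0.345 in vehicle mice for Ncan to Bcan, and 0.391 against 0.0330 for Tnc to Tnr.

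Levels of cell type markers also differed on Day 1, beside 11.5% of all genes called higher and 8.05% called lower. Of mature oligodendrocyte markers, 7 of 8 were called lower (8.05% of all genes), and their summed level was 2329 to 4244 CPM after FGF1 against 3869 to 5571 CPM in vehicle mice. Neuron markers summed to 3508 to 4485 CPM against 4608 to 5698 CPM with none of 9 called, and oligodendrocyte precursor markers to 236 to 277 CPM against 265 to 339 CPM with none of 8 called. Astrocyte markers summed to 5016 to 6068 CPM against 4591 to 5295 CPM, with 2 called higher and 2 lower of 10. Microglia markers summed to 226 to 306 CPM against 204 to 234 CPM, with 5 higher and 1 lower of 7. Newly formed oligodendrocyte markers summed to 411 to 524 CPM against 387 to 438 CPM, with 1 higher and 3 lower of 8. Of markers of cells at the ventricles, tanycyte markers summed to 89.6 to 154 CPM against 134 to 198 CPM with 1 higher and 1 lower of 7, ependymal markers summed to 34.9 to 59.6 CPM against 58.9 to 81.4 CPM with 2 of 5 lower, and choroid plexus markers to 18.5 to 35.6 CPM against 41.0 to 52.5 CPM with 1 of 2 lower. Markers of hypothalamic identity summed to 652 to 1091 CPM against 1057 to 1478 CPM, with 1 higher and 2 lower of 10. No marker among the genes counted was at 0 in any library. Of the listed markers, 2 of 6 for choroid plexus (Kl and Clic6), 7 of 8 for tanycytes and 5 of 6 for ependymal cells were counted. The part of these shifts in the member genes' differences was not tested.

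On Day 5 Tnr was the member that stood apart after FGF1. Tnr, encoding the tenascin that cross-links lecticans in the mature net, was 244 to 318 CPM in FGF1-treated mice (median 266). It was 175 to 223 CPM (median 185) in vehicle mice labelled non-diabetic and 160 to 186 CPM (median 177) in those labelled diabetic. All 9 FGF1-treated mice lay above all vehicle mice of both groups. Against the diabetic-labelled vehicle, the log2 fold change was 0.61 (SE 0.08, adjusted p = 1.1e-06), a 1.52-fold difference. Against the non-diabetic vehicle it was 0.4995 (SE 0.08, adjusted p = 5.5e-05), which fell short of the fold threshold by less than the rounding. Leaving out FGF1 replicate 1, 2, 3, 5 or 7 or non-diabetic vehicle replicate 2 or 3 made that value a call, with a highest value of 0.54 and a lowest of 0.46 over all such fits.

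Under both thresholds, 0 of 9 members were called against the non-diabetic vehicle (1.54% of all genes) and 1 of 9, Tnr, against the diabetic-labelled vehicle (2.85% of all genes). Against the non-diabetic vehicle, 3 members and 2348 of all genes had an unadjusted p below 0.05 (edgeR). DESeq2 also called 0 members there, beside 228 of all genes. Tnr was the 1 member of 9 without overlap between groups in either comparison, against 3.93% and 6.08% of all genes. These comparisons share the 9 FGF1-treated mice.

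The Day 1 responders had no called difference on Day 5. Tnc was 6.95 to 14.5 CPM (median 8.54) after FGF1, 5.81 to 7.57 CPM in non-diabetic vehicle mice and 6.30 to 7.94 CPM in diabetic-labelled vehicle mice. Its log2 fold changes were 0.56 (SE 0.31, adjusted p = 0.38) and 0.48 (SE 0.31, adjusted p = 0.39). Of the 9 treated mice, 7 exceeded all non-diabetic vehicle mice in Tnc. When only Day 5 libraries entered the fit, the first of these values became a call (0.56, adjusted p = 0.0048). Ncan was 50.9 to 82.0 CPM after FGF1 against 73.7 to 85.0 and 67.9 to 90.5 CPM, with log2 fold changes of -0.21 (adjusted p = 0.23) and -0.16 (adjusted p = 0.33). Bcan was 177 to 229 CPM against 174 to 188 and 164 to 193 CPM, with log2 fold changes of 0.15 (adjusted p = 0.59) and 0.17 (adjusted p = 0.43).

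Vcan, the lectican gene versican, was 70.3 to 90.0 CPM after FGF1 and 61.1 to 71.3 and 61.0 to 70.5 CPM in the vehicle groups. In 8 of 9 treated mice it exceeded all vehicle mice of either group, yet its log2 fold changes of 0.25 (SE 0.10, adjusted p = 0.16) and 0.27 (SE 0.10, adjusted p = 0.078) passed neither threshold. Acan, Hapln1, Hapln4 and Ptprz1 had log2 fold changes between -0.25 and 0.22 in these comparisons, with adjusted p from 0.39 to 0.89. Over the alternative settings, single left-out libraries aside, the adjusted p of Vcan was as low as 8.4e-05 and 9.1e-06, and as high as 0.21 and 0.10. Its log2 fold changes there were at most 0.27 and 0.29. The lowest adjusted p was 0.019 and 0.0025 for Ptprz1, 0.015 and 0.0044 for Bcan, and 0.0089 and 0.089 for Ncan. None of these members was called in those settings. The vehicle groups of Day 5 were also compared with each other. None of 9 members was called between diabetic-labelled and non-diabetic vehicle mice, with log2 differences from -0.18 to 0.09, and 0% of all genes was called (edgeR, with 0 members and 193 genes at an unadjusted p below 0.05, and 0 genes with DESeq2).

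On Day 5 markers of several cell types differed after FGF1, beside 1.54% of all genes called against the non-diabetic vehicle and 2.85% against the diabetic-labelled vehicle. Of newly formed oligodendrocyte markers, 7 of 8 were called higher against either vehicle group, and they summed to 595 to 770 CPM after FGF1 against 339 to 414 and 339 to 432 CPM. Mature oligodendrocyte markers summed to 6522 to 7417 CPM against 4734 to 6224 and 4312 to 6355 CPM, with 3 of 8 called. Precursor markers summed to 349 to 373 CPM against 301 to 361 and 309 to 343 CPM, with none called. Astrocyte markers summed to 5444 to 5941 CPM against 4809 to 5004 and 4692 to 5226 CPM, with 2 of 10 higher in either comparison. Microglia markers summed to 285 to 353 CPM against 223 to 364 CPM with none of 7 called, and against 205 to 238 CPM with 6 of 7 higher. Meningeal fibroblast markers summed to 93.3 to 343 CPM against 54.0 to 175 CPM with 3 of 7 higher, and against 69.2 to 190.0 CPM with 1 higher. Neuron markers summed to 2628 to 3208 CPM against 3238 to 3395 and 3064 to 3551 CPM, with none of 9 called. Ependymal markers summed to 58.9 to 83.8 CPM, against 48.0 to 66.5 CPM (none of 5 called) and 41.7 to 62.5 CPM (1 higher). Tanycyte markers summed to 90.4 to 136 CPM, against 97.8 to 134 CPM (none of 7 called) and 93.5 to 133 CPM (1 lower). The part of these shifts in the difference of Tnr was not tested.

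On Day 42 no member was called, and 0% of all genes was called (smallest adjusted p over all genes 0.27). At an unadjusted p below 0.05, edgeR listed 1 member and 776 genes, and DESeq2 called 0 genes after adjustment. That member was Ncan, at 72.1, 84.8, 77.2, 83.2 and 143.3 CPM in FGF1-treated mice and 66.2, 79.0, 71.5, 80.0 and 70.6 CPM in vehicle mice. The log2 fold change was 0.32 (SE 0.11, unadjusted p = 0.0055, adjusted p = 0.51). A single mouse, FGF1 replicate 5, held the high value, and without it the log2 fold change was 0.11 (unadjusted p = 0.21). The same library had a summed level of 642 CPM for 4 forebrain excitatory neuron markers, against 34.5 to 105 CPM in the other FGF1-treated mice and 37.0 to 107 CPM in vehicle mice, and the highest Hapln1 level (15.4 CPM). Its choroid plexus markers summed to 163 CPM, against 18.9 to 39.0 CPM in the other Day 42 libraries. No member lacked overlap between groups on Day 42, against 0.267% of all genes. Tnr, the Day 5 responder, was 293.7, 262, 269.8, 299.4 and 288 CPM after FGF1 and 303, 255, 312, 292 and 188 CPM in vehicle mice, with a log2 fold change of 0.07 (95% interval -0.14 to 0.27).

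The change of the FGF1 effect between days was tested as an interaction, with the non-diabetic vehicle as the reference. From Day 1 to Day 5 the effect changed for 4 of 9 members, against 15.8% of all genes. It fell by 2.98 on the log2 scale for Tnc (SE 0.46, adjusted p = 1.7e-06) and by 1.31 for Ncan (SE 0.14, adjusted p = 5.2e-10). It rose by 0.72 for Bcan (SE 0.17, adjusted p = 0.0014) and by 0.69 for Tnr (SE 0.13, adjusted p = 3.4e-05). For Hapln1 the change was 0.74 (SE 0.30, adjusted p = 0.064), and it was called without FGF1 Day 1 replicate 4, 6 or 10, vehicle Day 1 replicate 1 or non-diabetic vehicle Day 5 replicate 1 (0.81 to 0.92). Hapln1 was also called with DESeq2 (0.80, adjusted p = 0.042), with only the libraries of the days compared (0.77, adjusted p = 0.042) and with the Day 5 vehicle groups merged (0.83, adjusted p = 0.021). From Day 5 to Day 42, 0 of 9 members and 0.717% of all genes were called. The nearest were Ncan (0.53, SE 0.14, adjusted p = 0.060) and Tnr (-0.43, SE 0.13, adjusted p = 0.11). They were the 2 members with an unadjusted p below 0.05, beside 1419 of all genes (edgeR). DESeq2 called 1 member, Ncan (0.55, adjusted p = 0.026), beside 129 of all genes. Ncan was also called without FGF1 Day 42 replicate 1, 3 or 4 or FGF1 Day 5 replicate 1 or 2 (0.55 to 0.61), and Tnr without vehicle Day 42 replicate 5 (-0.54). Without FGF1 Day 42 replicate 5 the Ncan value was 0.32. Day and preparation coincide, so these changes cannot be told apart from a preparation that altered the FGF1 difference.

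The genes that build, sulfate and cleave the net were described from lists, with counts read beside the 11.5% of all genes called higher and 8.05% called lower on Day 1. Of 3 other link protein and tenascin genes, all were called on Day 1: Hapln2, a link protein of the nodes of Ranvier, fell by 0.78 on the log2 scale (SE 0.14, adjusted p = 1.7e-05), Hapln3 fell by 0.68 (adjusted p = 0.019) and Tnxb, encoding tenascin-X, rose by 0.83 (adjusted p = 0.014). Thus among the 4 lectican neighbours of the link protein family, Hapln1, Hapln2 and Hapln3 were lower and Hapln4 was not called. Hyaluronan synthases and breakdown genes had 3 of 6 higher and none lower (median log2 fold change 0.53), above the 11.5% of all genes. These were the synthases Has1 (2.42, adjusted p = 4.5e-09) and Has3 (0.69, adjusted p = 0.00051) and the hyaluronidase Hyal2 (0.93, adjusted p = 5.0e-05).

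Chondroitin sulfate chain synthesis had 2 of 12 genes higher on Day 1, Chsy1 (0.89, adjusted p = 1.6e-13) and Chpf (0.63, adjusted p = 0.027), which extend the chain, with a list median of 0.04. That count is near the 11.5% of all genes called higher and is no result about the list. Among sulfotransferases and epimerases, 3 of 9 were higher, beside the same 11.5%: Chst11 (0.76, adjusted p = 3.8e-09), which adds 4-O-sulfate, Chst7 (0.70, adjusted p = 0.040) and the epimerase Dse (0.59, adjusted p = 0.00012). On Day 5, Chst3 and Ust of the same list were called against either vehicle group, beside 1.54% and 2.85% of all genes. Chst3, which adds 6-O-sulfate, had log2 fold changes of 0.86 (adjusted p = 1.1e-06) and 0.91 (adjusted p = 2.0e-07), and the uronyl sulfotransferase gene Ust had 0.58 (adjusted p = 7.9e-05) and 0.62 (adjusted p = 1.7e-05). By the interaction test from Day 1 to Day 5 (15.8% of all genes), the FGF1 effect fell by 0.70 on the log2 scale for Chst11 (SE 0.12, adjusted p = 1.3e-05) and by 0.85 for Chsy1 (SE 0.10, adjusted p = 3.0e-09), and rose by 0.72 for Ust (SE 0.14, adjusted p = 0.00013). The other genes of both lists were not called in that test. From Day 5 to Day 42 (0.717% of all genes) Chst3 was the 1 gene of both lists called, with an effect that fell by 1.01 (SE 0.17, adjusted p = 0.00035).

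Among 14 genes of lectican-cleaving and other proteases and their inhibitors, 6 were higher and 2 lower on Day 1, against 19.5% of all genes called. Adamts1 (2.55, adjusted p = 6.3e-15) and Adamts4 (1.77, adjusted p = 9.0e-10) encode enzymes that cut lecticans, and Timp1 (7.57, SE 0.40, adjusted p = 2.9e-20) encodes a metalloproteinase inhibitor. Adamts20 fell by 1.41 (adjusted p = 5.9e-13). On Day 5 Timp1 was still higher (1.34, adjusted p = 0.045, and 1.42, adjusted p = 0.017), and Adamts4 was called against the diabetic-labelled vehicle alone (0.58, adjusted p = 0.024). Of 17 receptors and partners, 4 were higher and 1 lower on Day 1, not far from the 19.5% of all genes. Cd44, encoding the main hyaluronan receptor, rose by 2.88 (adjusted p = 2.9e-20), Nptx2, encoding a neuronal pentraxin, by 1.96 (adjusted p = 8.3e-10) and Sema3a, encoding a semaphorin that binds nets, by 0.73 (adjusted p = 0.0015), while Ptprd fell by 0.58 (adjusted p = 1.2e-05). Cd44 was also higher on Day 5 (0.64 in either comparison, adjusted p = 0.0020 and 0.0011), and Mdk, encoding the chondroitin sulfate ligand midkine, was higher against the non-diabetic vehicle (0.55, adjusted p = 0.041).

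Other brain chondroitin sulfate proteoglycans had 2 of 10 genes called on Day 1, both higher, beside the 11.5% of all genes. These were the small leucine-rich proteoglycan genes Dcn (1.39, adjusted p = 0.00051) and Bgn (1.29, adjusted p = 7.6e-05). Bgn was called again on Day 5 against the diabetic-labelled vehicle (0.85, adjusted p = 0.033). Dcn is also among the 7 meningeal fibroblast markers, which summed to 60.3 to 351 CPM after FGF1 and 104 to 206 CPM in vehicle mice on Day 1, with 2 called higher and 3 lower. Their part in the differences of Dcn and Bgn was not tested. None of the 6 genes of the net-bearing fast-spiking neurons was called on any day, beside 19.5% of all genes on Day 1 (list median log2 fold change -0.01 on Day 1). On Day 1, 0 of them had an unadjusted p below 0.05 (edgeR), against 7345 of all 14221 genes. None of these lists had a called gene on Day 42, when 0% of all genes was called.

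**Figure D4:**
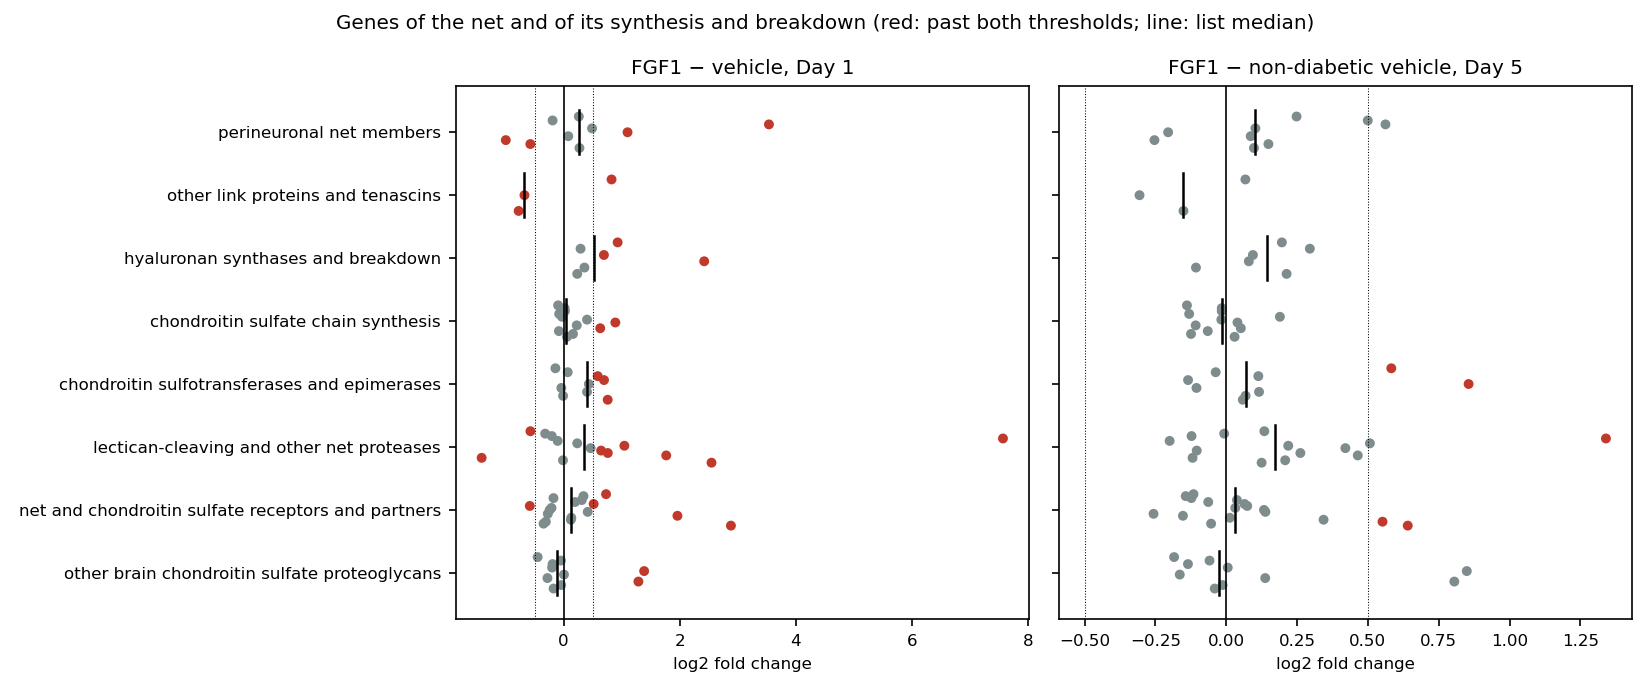
Log2 fold changes (horizontal axes, with a different range in each panel) of the net genes and of lists that build, modify, cleave or bind the net, on Day 1 and on Day 5 against the non-diabetic vehicle. Each point is a gene, red where it passed both thresholds, and each line is a list median. The farthest point on Day 1 is Timp1 at 7.57, and the members' medians are 0.26 and 0.10.

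To place the called members among all genes, the genes whose levels ran most like theirs were listed over 46 libraries, after removal of the mean of each day and without the shallowest library. These correlations share the FGF1 and vehicle groups and the library depth and are given as a description. Tnc ran most like Pdpn (Pearson r = 0.91), Tm4sf1 (0.90) and Tnfaip2 (0.90), with Day 1 log2 fold changes of 2.26, 2.56 and 3.71. Pdpn encodes podoplanin, a membrane glycoprotein. Ncan ran most like Pcdhgc5 (r = 0.90), Mras (0.90) and Inka2 (0.89), with Day 1 log2 fold changes of 2.00, 1.08 and 3.17. Bcan ran most like Pcx (r = 0.89), Col11a2 (0.88) and Apoe (0.88), with Day 1 log2 fold changes of -0.22, -0.62 and -0.42. Hapln1 had weaker partners, led by Cpox (0.75), Anln (0.74) and Plekhh1 (0.74). Tnr ran most like Scg3 (0.87), Tmem47 (0.87) and Stxbp4 (0.85), with Day 5 log2 fold changes of 0.20, 0.53 and 0.34 against the non-diabetic vehicle. No gene was among the 3 most alike of more than 1 member.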

How the data were processed

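RNA was isolated from frozen hypothalamus of single mice, and mRNA libraries were made with a strand-marking kit. The authors deposited raw counts per gene for 47 libraries, and these counts were used as deposited. The submitters' processing notes name STAR and DESeq2. The counting program and its use of strand were not given in the sources used here, and the named build (GRCh38) is human, so gene positions and lengths were taken by name from GENCODE for GRCm38 (14180 of 14221 genes matched). The sample sheet's group column joined both Day 5 vehicle groups, which the labels separate, and the labels were followed.

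Counts were scaled by TMM and fitted over all 47 libraries with 7 group means in edgeR 4.0.16 (R 4.3.3) by the quasi-likelihood test. filterByExpr removed 0 genes. Adjusted p-values are Benjamini-Hochberg values over all genes. The 7 comparisons were FGF1 against vehicle within each day, vehicle against vehicle on Day 5 and 2 changes between days. The code was tested on simulated data. Alternatives used DESeq2 1.42.0, limma 3.58.1, other filters and left-out libraries. The members and lists were chosen with earlier results of these data known. All members were named. Of the other lists, genes called against vehicle were named, at most the 4 largest changes per list and comparison, and the 3 most alike genes were named for each called member. Library totals of 1243280 to 47082403 counts set the counting precision. Intervals, SEs and p-values rest on a spread between mice estimated per gene over all 47 libraries, not within the groups compared. Groups with unequal spread share that estimate. For Tnc the SD of log2 CPM was 1.01 in FGF1-treated mice on Day 1. On Day 5 it was 0.38 in FGF1-treated mice and 0.14 in non-diabetic vehicle mice.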

Additional observations from a re-analysis of the deposited data

Results flagged for a closer look

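The effect of FGF1 differed between Day 1 and Day 5 by the interaction test for 4 members: Bcan (0.72), Ncan (-1.31), Tnr (0.69) and Tnc (-2.98), as differences in log2 fold change. For Bcan the effect went from -0.57 to 0.15, for Ncan from 1.10 to -0.21, for Tnc from 3.54 to 0.56 and for Tnr from -0.19 to 0.4995.

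Of 63 sets of values (9 members in 7 groups), 7 had a mouse far from the rest of its group by Dixon's criterion, which flags about 1 in 20 groups by chance. Hapln1 was 0 CPM in FGF1 Day 1 replicate 1, the shallowest library, with the next mouse at 0.875 CPM. Since 0 counts there allow up to 2.44 CPM, this value does not show a mouse apart from its group. Tnr was highest in FGF1 Day 5 replicate 4 (317.6 CPM, next 275 CPM) and in non-diabetic vehicle Day 5 replicate 2 (223.3 CPM, next 194 CPM). That vehicle mouse also had the lowest Vcan of its group (61.11 CPM, next 66.8 CPM). On Day 42, Ncan was highest in FGF1 replicate 5 (143.3 CPM, next 84.8 CPM), Bcan was lowest in FGF1 replicate 4 (128.5 CPM, next 158 CPM) and Ptprz1 was lowest in vehicle replicate 5 (257.5 CPM, next 456 CPM).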

How the results depend on the processing

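No member's called log2 fold change changed sign under any alternative that was run. The number of members called was 0 against the non-diabetic vehicle on Day 5, and became 1 (Tnr) with at least 10 counts in every library, without a fold threshold or with both Day 5 vehicle groups merged, and 2 (Tnr and Tnc) with only the Day 5 libraries. For the change of the FGF1 effect from Day 5 to Day 42, the count of 0 became 1 with DESeq2 (Ncan), with limma voom and sample quality weights (Tnr) and with the vehicle groups merged (Ncan). Leaving out each library in turn gave 3 to 5 members on Day 1, 0 to 1 against the non-diabetic vehicle on Day 5, 1 to 1 against the diabetic-labelled vehicle, 4 to 5 for the change from Day 1 to 5 and 0 to 1 for that from Day 5 to 42. Over all genes the same fits gave 2335 to 3088 calls, 169 to 250, 348 to 414, 1818 to 2559 and 56 to 149. Ptprz1 on Day 1 was called with voom weights (0.50, adjusted p = 5.5e-05). The cause of these shifts was not tested, except that Hapln1 and Acan were not tested where 10 counts were required.

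Over all genes, requiring 10 counts in every library lowered the calls from 2776 to 1582 on Day 1, from 219 to 140 and 406 to 219 in the Day 5 comparisons and from 2247 to 1402 for the change from Day 1 to 5, since fewer genes were tested. Without a fold threshold they were 6396, 661, 1310 and 3784. Against the non-diabetic vehicle on Day 5 they were 438 with voom weights, 370 with Day 5 libraries alone and 372 with vehicle groups merged. The 102 calls for the change from Day 5 to 42 became 65 without the 2 deepest FGF1 Day 5 libraries and 56 without FGF1 Day 42 replicate 5, rose to 149 and 143 without FGF1 Day 42 replicates 3 and 1 and to 148 with the vehicle groups merged, and the 0 calls on Day 42 became 31 without FGF1 replicate 1 and 1 without FGF1 replicate 2. No paired analysis was possible because replicate numbers only follow the order of the samples.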
